A study of Oryza sativa with 8 samples.

Results

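The comparison described here set 2 root libraries of rice plants that overexpress OsERF48 against 2 root libraries of nontransgenic (NT) plants, all 4 bearing the word set in their column names and called the Set libraries. Its members are the genes whose FPKM averaged 0.5 or more across these 4 libraries, 26131 of the 37869 genes in the table (69.0%). FPKM is the number of fragments assigned to a gene, scaled to its length and to the number of mapped fragments of the library. The study lists 8 root samples, 4 of NT plants of the cultivar Ilmi and 4 of ROX OsERF48 plants, in which the promoter of RCc3, a gene expressed in roots, drives OsERF48 in that background. All samples came from roots of 2-week-old plants under normal conditions. The ROX OsERF48 samples came from 2 single-copy homozygous lines, #2 and #6, so the ROX OsERF48 group stands for few transformation events. The Set column names give genotype and set number but neither promoter, tissue nor line, so the libraries labelled ERF48 are read as ROX OsERF48, since no other OsERF48 transgenics are among the samples, and the lines could not be told apart. A second group of 4 libraries with the word Root in their names, 2 of each genotype, is used only for comparison. The methods describe 2 biological replicates with 2 technical repeats of each, but the column names do not say which libraries repeat the same RNA. The libraries of 1 genotype may therefore be technical repeats, and p-values measure only the spread between them.

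OsERF48 belongs to the AP2/ERF family, plant transcription factors with an AP2 DNA-binding domain. Members of the DREB group of this family are known for switching on genes under drought, salt or cold, while ERF members are known for responses to ethylene and pathogens. In roots, such factors can reach genes for cell walls, water channels, hormone synthesis and protective proteins, and these are the groups followed below. Each gene family was defined by words in the gene descriptions that accompany the deposited table, and 59 families were counted.

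Depth, estimated from the steps that whole fragments leave in low FPKM values, came to between 46200000 and 49800000 fragments per library. On the log2(FPKM + 1) scale, the ROX OsERF48 libraries correlated with r = 0.987, the NT libraries with r = 0.989, and libraries of different genotype with r between 0.972 and 0.981 across genes, which are not independent replicates. Root identity was checked with marker genes. Lsi1, a root silicon transporter, stood at 502 and 567 FPKM in ROX OsERF48 and at 598 and 546 FPKM in NT, and the manganese transporter OsNramp5 at 86.3 and 114 FPKM against 82.5 and 97.9 FPKM. One root marker, the ammonium transporter OsAMT1;2, was near 0 in all 4 libraries, with at most 0.137 FPKM. The summed level of 22 genes of the light-harvesting complexes and the small Rubisco subunit was 17.8 and 16.8 FPKM in ROX OsERF48 and 25.1 and 23.9 FPKM in NT, and the highest single value among them was 7.79 FPKM. Shoot genes were thus low in every library, and their sum was lower in ROX OsERF48. The part of that difference in other results was not tested.

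The overexpressed gene followed the labels. OsERF48 (chr8:19547328-19548978) had 816 and 612 FPKM in the ROX OsERF48 libraries and 65.9 and 59.3 FPKM in the NT libraries. Both transgenic libraries lay far above both NT libraries, with a log2 fold change of 3.48 ± 0.16 (SE, limma, n = 2 libraries per genotype, adjusted p = 0.00232), and values of 3.27 to 3.68 when each library was left out in turn. Reads of the transgene and of the native gene are not separated in these values. The native RCc3 gene (chr2:26804988-26805820), whose promoter drives the transgene, had 1581 and 1540.2 FPKM in the ROX OsERF48 libraries and 1236 and 1608 FPKM in the NT libraries. One NT library exceeded both ROX OsERF48 libraries, and the log2 fold change of 0.15 ± 0.18 did not pass the test (adjusted p = 0.761).

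A gene is called here when it differed at least 2-fold with an unadjusted p under 0.05 in limma, the limits given in the study's methods. By this rule 241 genes were higher in ROX OsERF48 roots (0.922% of the genes tested) and 156 were lower (0.597%). Of the 397 called genes, 243 also had a Benjamini-Hochberg adjusted p under 0.05 over all genes tested, 173 of them higher and 70 lower. At that adjusted threshold with no limit on fold, 211 genes were higher (0.807%) and 113 lower (0.432%). The lower count was sensitive to single libraries and came to 312 without the NT library of set 2, whereas the higher count stayed between 233 and 298. In every fit with 1 library left out, 178 of the higher and 80 of the lower genes were called again. A change of at least 4-fold was found in 69 higher and 16 lower genes. Strongly expressed genes were few among them, with 17 higher and 5 lower genes at a mean of at least 100 FPKM. Most changes were small: the median log2 fold change over all genes tested was -0.023 and the median absolute value was 0.12. The libraries of the genotypes did not overlap for 12528 of the genes tested (47.9%), and for all 397 called genes. A lack of overlap is therefore common and only describes the values of a gene.

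For families, where few members changed 2-fold, the count at an unadjusted p under 0.05 with any fold is given. Over all genes tested, 1875 genes (7.18%) were higher and 2262 (8.66%) were lower by that criterion, and these shares are the background for every family below. Leaving out the NT library of set 1 lowered these counts to 1072 and 1130. Rescaling the libraries turned the balance, since quantile normalization gave 2128 higher and 1919 lower genes and scaling by median ratios 2188 and 1941. The median log2 fold change over all genes was -0.0070 after the former and -0.0016 after the latter. Families with more higher than lower members included aquaporins, pectin enzymes, expansins, lipid transfer proteins and nitrogen assimilation enzymes. NAC, WRKY and MYB factors, ABC transporters, receptor-like kinases, NB-ARC receptors and glutathione S-transferases had more lower members. Family members share sequence and some lie side by side, so they are not independent of each other. For the other fits with a library left out, the shares over all genes are not given here. A shift of a family count in those fits may therefore be a shift of all genes.

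**Figure D1:**
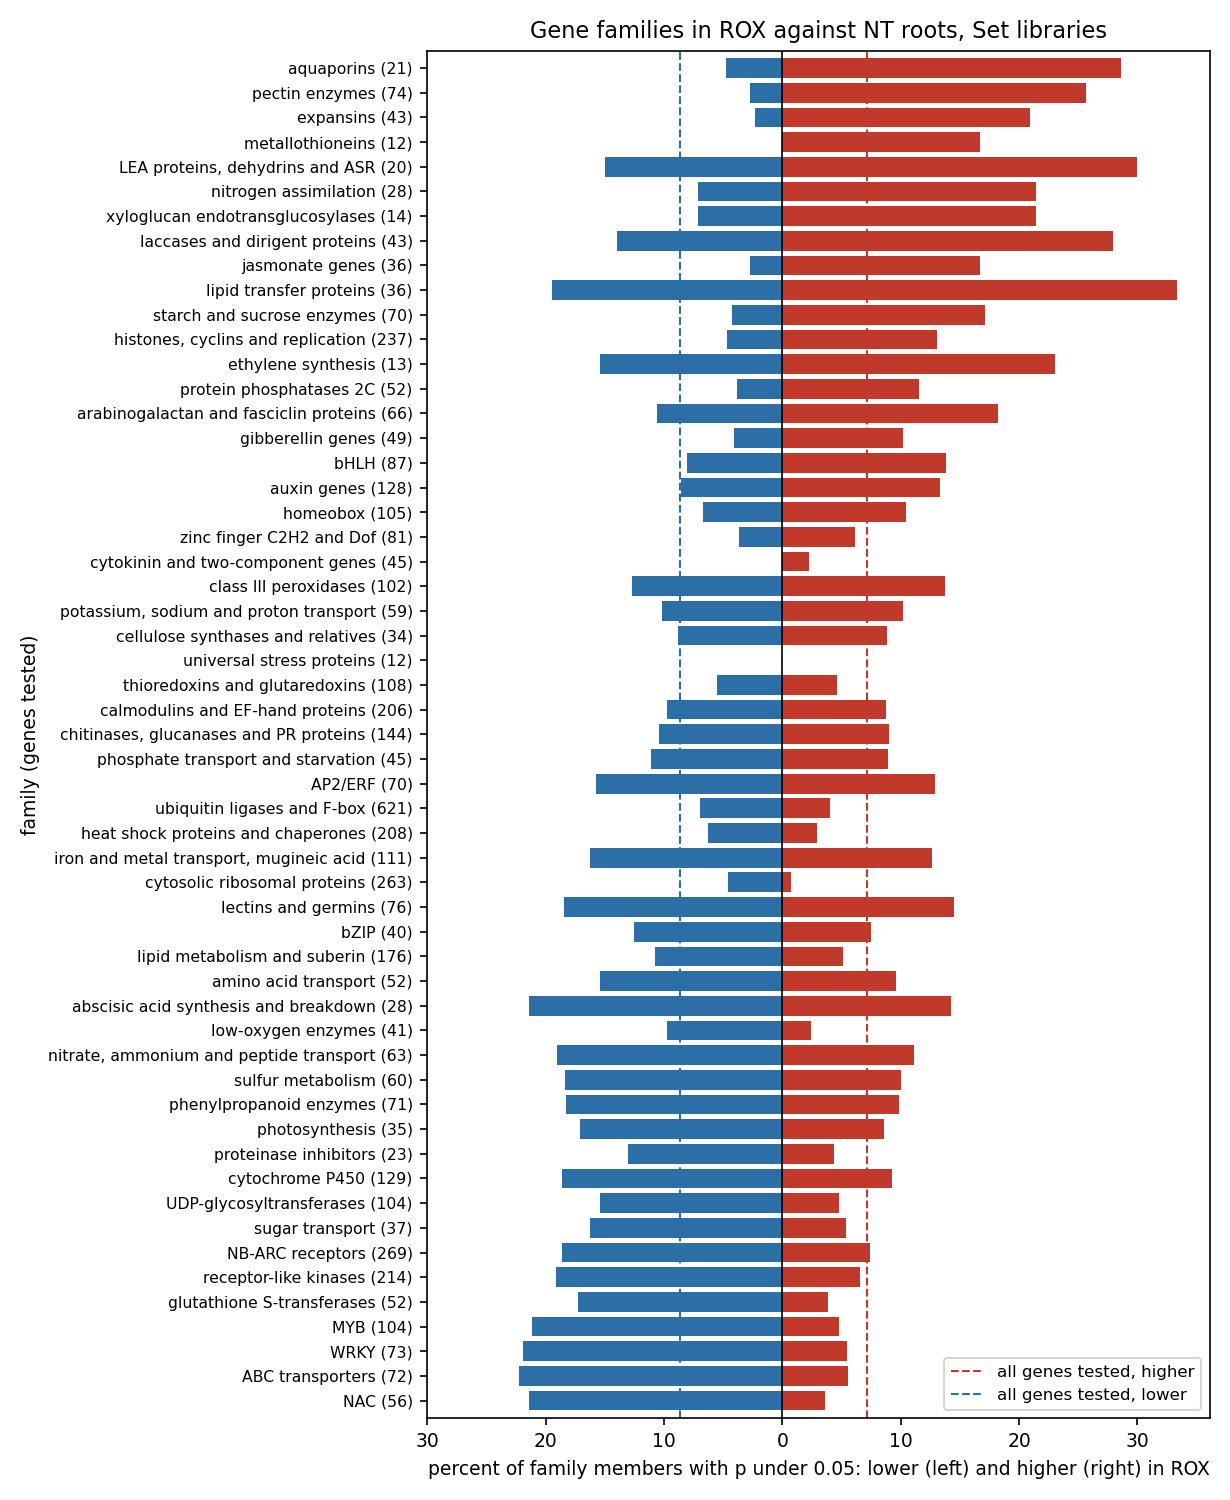
Share of the tested members of each family with an unadjusted p under 0.05 in limma, higher in ROX OsERF48 to the right (red) and lower to the left (blue), in percent, with the number of genes tested in parentheses. Dashed lines give the shares over all genes tested, 7.18% higher and 8.66% lower. Aquaporins reached 28.6% higher and 4.76% lower, NAC factors 3.57% higher and 21.4% lower.

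Several water channels rose in ROX OsERF48 roots. Aquaporins are membrane channels that carry water and small solutes, and the PIP and TIP groups sit in the plasma membrane and the vacuole membrane. Of 21 aquaporin genes tested, 6 passed the test as higher and 1 as lower, and the median log2 fold change was 0.42, against -0.023 over all genes tested. TIP2-3 (chr4:27595492-27596105) had 88.7 and 118 FPKM in the ROX OsERF48 libraries and 42.3 and 64.2 FPKM in the NT libraries. Its groups did not overlap, and the log2 fold change was 0.96 ± 0.24 (adjusted p = 0.165). A PIP2-5-like gene, Os07g0448400, had 558 and 671 FPKM against 277 and 407 FPKM in NT, and it again was higher in both ROX OsERF48 libraries (log2 fold change 0.86 ± 0.22, adjusted p = 0.17). Among the most abundant channels, a PIP1-5-like gene, Os02g0823100, had 1905 and 2265 FPKM against 1237 and 1566 FPKM in NT. This gene rose by 0.58 ± 0.20 on the log2 scale, with an adjusted p of 0.267. For Os02g0666200, described only as an aquaporin, the values were 2417 and 3459 FPKM against 1569 and 2164 FPKM in NT, the groups did not overlap, and the test was not passed (adjusted p = 0.345). The 1 lower member was a NIP1-1-like gene of the nodulin-26 group, Os05g0205000, with 3.43 and 3.61 FPKM against 5.55 and 4.99 FPKM in NT. No aquaporin reached 2-fold, and none had an adjusted p under 0.05. The NT library of set 2 was above that of set 1 for each PIP and TIP gene named here. Without the NT library of set 1 the count of higher members was 4, without that of set 2 it was 12, and with no filter on low genes it was 2.

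Cell wall loosening genes were also among those that rose. Expansins loosen growing walls, and 9 of 43 tested members were higher and 1 lower, with a median of 0.21. The largest increase belonged to Os05g0277000, an EXPA3-like alpha-expansin, with 14.5 and 11.3 FPKM in the ROX OsERF48 libraries and 6.28 and 7.73 FPKM in the NT libraries. An expansin-B7-like gene, Os03g0102700, had 66.7 and 60.3 FPKM against 39.9 and 41.6 FPKM in NT, close together within each genotype and 0.63 ± 0.087 higher on the log2 scale (adjusted p = 0.0547). The beta-expansin Os10g0555900 went the other way, with 35.0 and 36.1 FPKM in NT roots and 22.8 and 26.6 FPKM in ROX OsERF48 roots. No expansin was called, and the counts moved from 6 higher and 5 lower without the ROX OsERF48 library of set 1 to 14 and 1 without that of set 2. They were 4 and 1 without the NT library of set 1. The median without the ROX OsERF48 library of set 1 was 0.032.

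Pectin enzymes and their relatives, which build and cut the pectin of primary walls, had 19 higher and 2 lower members of 74, with a median of 0.13. Without the NT library of set 1, 10 were higher and none lower. The strongest increase was that of a pectin lyase fold gene, Os08g0220400, with 2.04 and 2.42 FPKM in the ROX OsERF48 libraries and 0 and 0.0155 FPKM in the NT libraries. It was near 0 in NT and in the Root libraries, and its log2 fold change in the Set libraries was 1.68 ± 0.11 (adjusted p = 0.00799). Among 14 xyloglucan endotransglucosylases, which cut and rejoin the hemicellulose xyloglucan, 3 were higher and 1 lower. Os04g0604300, similar to XTH24, stood out among them with 5.36 and 5.24 FPKM against 1.52 and 1.55 FPKM in NT (log2 fold change 1.31 ± 0.10, adjusted p = 0.0117). The study names it OsXTH9, a gene of its co-expression network that was chosen on libraries of this series. Another homolog, Os06g0696600, had 77.0 and 92.6 FPKM against 48.4 and 52.2 FPKM in NT, a smaller difference that passed the unadjusted test (log2 fold change 0.74 ± 0.11, adjusted p = 0.0706).

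Lipid transfer proteins are small secreted proteins that bind lipids and are known from cutin, suberin and defence. Of 36 tested, 12 were higher and 7 lower, and 4 were called higher. Os10g0554800 (chr10:21786115-21787034) had 221 and 197 FPKM in the ROX OsERF48 libraries and 58.8 and 81.5 FPKM in the NT libraries, and Os07g0287400 had 482 and 558 FPKM against 167 and 214 FPKM in NT. Both sat at high levels with no overlap between genotypes, at log2 fold changes of 1.58 ± 0.17 (adjusted p = 0.0312) and 1.45 ± 0.16 (adjusted p = 0.0302). Os01g0914300 had 355 and 258 FPKM against 128 and 150.3 FPKM in NT, and its log2 fold change of 1.12 fell to 0.89 without the ROX OsERF48 library of set 1. The number of lower members depended on the NT library of set 1, without which it was 1.

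Laccases and dirigent proteins, which couple phenolic units, had 12 higher and 6 lower members of 43, but 4 and 5 without the NT library of set 1. An enzyme of the preceding step in lignin synthesis, the putative cinnamyl alcohol dehydrogenase 4 (Os11g0622800), had 171 and 226 FPKM in the ROX OsERF48 libraries and 47.3 and 76.5 FPKM in the NT libraries. Its libraries did not overlap between genotypes (log2 fold change 1.69 ± 0.26, adjusted p = 0.0686). Of the 71 phenylpropanoid enzymes, to which it belongs, 7 were higher and 13 lower, with 2 called higher. A peroxidase 43-like gene, Os12g0191500, of the class that crosslinks wall phenolics, rose, with 5.67 and 6.31 FPKM in NT roots and 34.2 and 22.5 FPKM in ROX OsERF48 roots (log2 fold change 2.04 ± 0.20, adjusted p = 0.0239). Of 102 class III peroxidases, 14 were higher and 13 lower, with 1 called higher and 2 lower.

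A pair of neighbouring genes on chromosome 3 gave some of the highest levels among called genes. Os03g0103200 (chr3:211082-211817), described as similar to a physical impedance induced protein, had 1236 and 1289 FPKM in the ROX OsERF48 libraries and 338 and 466 FPKM in the NT libraries. Its neighbour Os03g0103300 (chr3:220396-220853), similar to the QLTG-3-1 protein, had 159 and 133 FPKM against 37.8 and 46.7 FPKM in NT. The ROX OsERF48 values were close to each other and well above NT for both, with log2 fold changes of 1.67 ± 0.18 (adjusted p = 0.0316) and 1.76 ± 0.14 (adjusted p = 0.0134). Genes of cell division had smaller changes. Of 237 histone, cyclin and DNA replication genes, 31 were higher and 11 lower, with a median of 0.052, and these counts were 8 and 10 without the ROX OsERF48 library of set 1 and 7 and 4 without the NT library of set 1. In the opposite direction, Os05g0483801, similar to cyclin-dependent kinase B2-1, which acts in mitosis, had 4.85 and 4.86 FPKM in NT roots and 1.27 and 1.64 FPKM in ROX OsERF48 roots (log2 fold change -1.26 ± 0.12, adjusted p = 0.022).

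**Figure D2:**
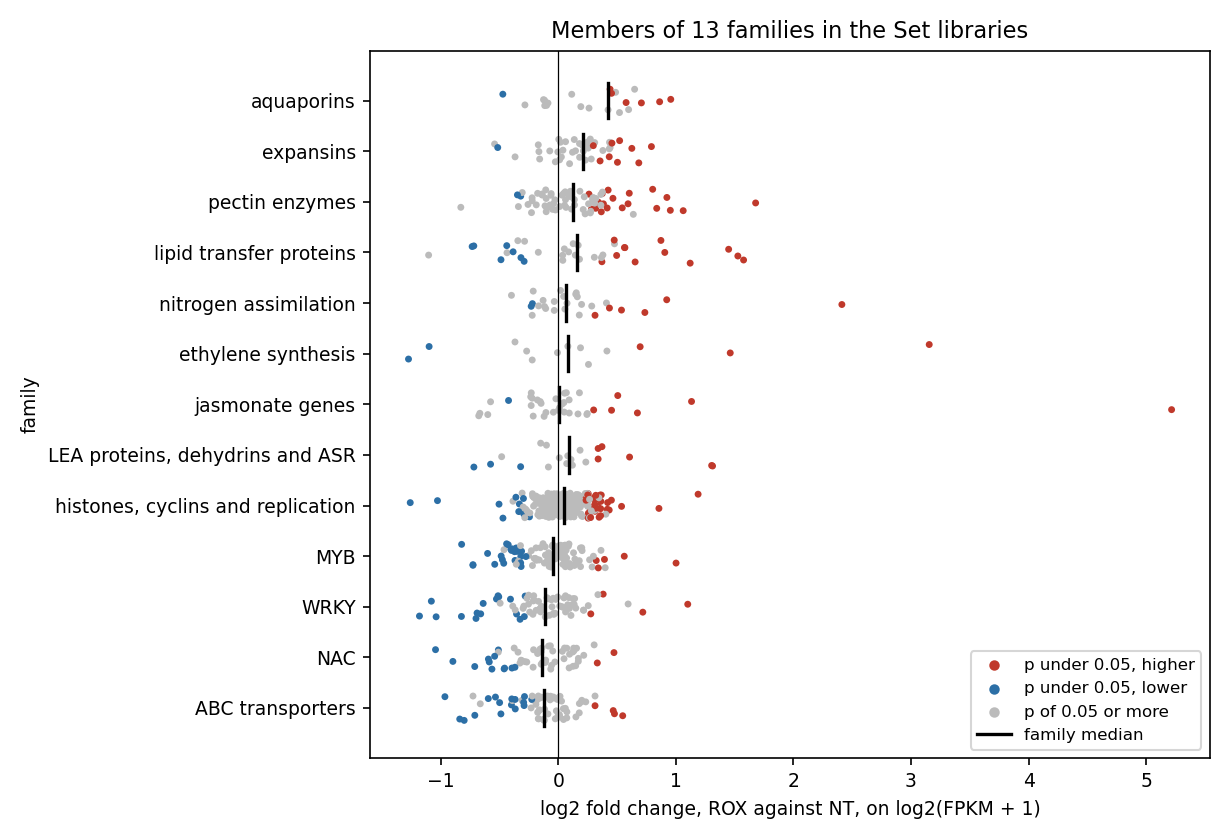
Log2 fold change of each tested member of 13 families, ROX OsERF48 against NT in the Set libraries, on the log2(FPKM + 1) scale. Each point is a gene, coloured where its unadjusted p in limma is under 0.05, and the black bar is the family median, 0.42 for aquaporins and -0.14 for NAC factors. Few members lie beyond 1 or -1, the limits of a 2-fold change.

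Called hormone genes were few. Of 128 auxin genes, 17 were higher and 11 lower, with 1 called, and of 28 genes of abscisic acid synthesis and breakdown 4 were higher and 6 lower, with none called. ACC oxidase makes ethylene from ACC, which ACC synthase supplies. Of 13 ethylene synthesis genes, 3 were higher and 2 lower, and 4 of these 5 were called, all of them ACC oxidases. Os02g0771600 (chr2:32558636-32562547) had 248 and 206 FPKM in the ROX OsERF48 libraries and 19.0 and 31.5 FPKM in the NT libraries. It was the most changed of them, with both ROX OsERF48 libraries above both NT libraries (log2 fold change 3.16 ± 0.25, adjusted p = 0.0119). The study took this gene as the negative control when it measured OsERF48 binding to promoters, and reported no enrichment there. Os11g0186900 had 49.0 and 79.7 FPKM against 21.6 and 22.5 FPKM in NT (log2 fold change 1.46 ± 0.23, adjusted p = 0.0716). Its ROX OsERF48 values differed more from each other than its NT values, yet both exceeded NT.

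The ACC oxidases Os05g0149300 and Os05g0149400, neighbours on chromosome 5, fell. Os05g0149300 had 26.2 and 23.8 FPKM in NT roots and 6.94 and 13.5 FPKM in ROX OsERF48 roots, and Os05g0149400 had 21.0 and 12.7 FPKM in NT roots and 6.03 and 8.40 FPKM in ROX OsERF48 roots. Neither had overlapping groups, but the fold of each was under 2 when the ROX OsERF48 library of set 1 was left out (log2 fold changes -0.84 and -0.89), and for Os05g0149400 also without the NT library of set 1 (-0.76). The adjusted p-values were 0.142 and 0.16. An ACC synthase, Os09g0453800, had 218 and 254 FPKM against 124 and 169 FPKM in NT, 0.70 higher on the log2 scale and not called.

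Jasmonate synthesis starts with lipoxygenases and allene oxide synthase. Os10g0361000 (chr10:11110251-11110999) is described only by an LH2 domain, which lipoxygenases carry. That description alone places it among the 36 jasmonate genes counted below, and it does not show that the gene is a lipoxygenase. Os10g0361000 had 63.8 and 93.0 FPKM in the ROX OsERF48 libraries and 0.579 and 1.79 FPKM in the NT libraries. The difference was the largest rise among described genes outside the study's own gene lists, at a log2 fold change of 5.22 ± 0.32 (adjusted p = 0.00591). In the Root libraries the gene was low throughout, with 0.556 and 0.746 FPKM in ROX OsERF48 and 0.509 and 0.366 FPKM in NT. The allene oxide synthase Os02g0218700 had 15.1 and 12.1 FPKM against 6.70 and 4.72 FPKM in NT, and its log2 fold change of 1.13 was 0.99 without the ROX OsERF48 library of set 1 and 0.92 without the NT library of set 2. Over 36 jasmonate genes, 6 were higher and 1 lower, with a median of 0.0063, and these counts were 4 and 6 without the NT library of set 2. For gibberellin, 5 of 49 genes were higher and 2 lower, among the former Os07g0592000 of the gibberellin regulated family, with 11.04 and 9.27 FPKM against 2.02 and 3.18 FPKM in NT (log2 fold change 1.65 ± 0.19, adjusted p = 0.0343).

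Nitrogen assimilation enzymes reduce nitrate to ammonium and bind it to glutamate. Of 28 tested, 6 were higher and 2 lower, with a median of 0.066. The ferredoxin-nitrite reductase Os02g0765900 (chr2:32254101-32257127) had 11.5 and 12.3 FPKM in the ROX OsERF48 libraries and 1.04 and 1.88 FPKM in the NT libraries. It rose more than any other enzyme of the list (log2 fold change 2.41 ± 0.19, adjusted p = 0.0117), and the Root libraries held almost none of it, with 0.0141 and 0.00605 FPKM in ROX OsERF48 and 0.0779 and 0.119 FPKM in NT. The plastid glutamine synthetase Os04g0659100 had 161 and 174 FPKM against 79.9 and 96.1 FPKM in NT (log2 fold change 0.92 ± 0.12, adjusted p = 0.045). A nitrate reductase, Os08g0468100, which acts before nitrite reductase, had 45.4 and 55.7 FPKM against 24.97 and 35.5 FPKM in NT, and its increase of 0.74 on the log2 scale had an adjusted p of 0.184. These enzymes of successive steps were higher in both ROX OsERF48 libraries, without overlap. Of 63 nitrate, ammonium and peptide transporters, 7 were higher and 12 lower, but 9 and 6 without the NT library of set 2. The 3 called members were all higher. One of them was a peptide transporter PTR2-B-like gene, Os01g0871600, with 45.1 and 38.5 FPKM against 20.1 and 20.3 FPKM in NT. Its log2 fold change of 1.01 ± 0.10 was 0.90 without the ROX OsERF48 library of set 1. Another, Os10g0554200, is described as a nitrate transporter for one of its transcripts, and Os06g0264500 only by a TGF-beta receptor region, a text that the table also attaches to peptide transporter genes. Os06g0264500 had 14.3 and 14.7 FPKM against 6.84 and 6.38 FPKM in NT, and its log2 fold change of 1.03 was 0.98 without the NT library of set 2. Os10g0554200 had 156 and 300.0 FPKM against 84.0 and 113 FPKM in NT, and its log2 fold change of 1.14 was 0.67 without the ROX OsERF48 library of set 2 and 0.93 without the NT library of set 1.

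Metal genes moved both ways. Of 111 iron and metal genes, 14 were higher and 18 lower, and 2 were called higher and 4 lower. The counts were 4 and 14 without the NT library of set 1. Nicotianamine synthase 3 (Os07g0689600, chr7:29323098-29324607), which makes a chelator that moves iron and zinc, had 61.7 and 77.0 FPKM in the ROX OsERF48 libraries and 10.2 and 16.8 FPKM in the NT libraries. The increase, with no overlap, was 2.31 ± 0.24 on the log2 scale (adjusted p = 0.0281). Zinc transporter genes were among those that fell. A zinc transporter 4-like gene, Os06g0566300, had 16.8 and 18.0 FPKM in NT roots and 2.66 and 2.69 FPKM in ROX OsERF48 roots, with libraries of the same genotype close together (log2 fold change -2.32 ± 0.10, adjusted p = 0.00156). The ZIP1-like gene Os07g0232800 had 4.39 and 6.68 FPKM in NT roots and 0.945 and 1.25 FPKM in ROX OsERF48 roots (log2 fold change -1.62 ± 0.20, adjusted p = 0.0418). Another lower gene, Os04g0469000, with a heavy metal transport domain, had 7.92 and 4.94 FPKM in NT roots and 1.38 and 1.76 FPKM in ROX OsERF48 roots and an adjusted p of 0.0607. In the Root libraries these 3 genes had log2 fold changes of -0.24, 0.41 and 0.37.

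Phosphate genes showed 4 higher and 5 lower members of 45. The SPX domain gene Os02g0202200, of a family that senses phosphate status, was called lower, with 12.04 and 10.1 FPKM in NT roots and 2.76 and 3.14 FPKM in ROX OsERF48 roots (log2 fold change -1.61 ± 0.13, adjusted p = 0.0119). Its Root values did not show this, with 8.81 and 9.42 FPKM in ROX OsERF48 and 9.13 and 8.68 FPKM in NT. Of 72 ABC transporters, pumps that move solutes across membranes, 4 were higher and 16 lower, with a median of -0.12, though 8 were lower without the ROX OsERF48 library of set 2 and 7 without the NT library of set 1. A PDR-type member, Os06g0554800, had 31.8 and 31.3 FPKM in NT roots and 18.0 and 19.8 FPKM in ROX OsERF48 roots (log2 fold change -0.71 ± 0.085, adjusted p = 0.0382).

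NAC, WRKY and MYB factors had more lower than higher members. NAC factors, many of which act in stress and senescence, had 2 higher and 12 lower members of 56, with a median of -0.14. OsNAC5 (Os11g0184900, chr11:4299277-4301784) had 72.3 and 73.9 FPKM in NT roots and 40.2 and 37.5 FPKM in ROX OsERF48 roots. The libraries of each genotype were nearly equal, and the log2 fold change of -0.90 ± 0.079 had an adjusted p of 0.0171. The NAC gene Os01g0339500, at low levels of 0.291 and 0.185 FPKM against 1.39 and 1.72 FPKM in NT, was the only member called, with a log2 fold change of -1.04. It was -0.98 without the ROX OsERF48 library of set 2 and -0.95 without the NT library of set 2. Over the alternatives to the main fit, the count of lower NAC members lay between 5 and 18. In the main limma fit, 2 of the 12 had an adjusted p under 0.05.

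WRKY factors, best known from defence and stress, had 4 higher and 16 lower members of 73. WRKY62 (Os09g0417800) had 23.0 and 9.47 FPKM in NT roots and 5.52 and 6.51 FPKM in ROX OsERF48 roots, and WRKY76 (Os09g0417600), its neighbour on chromosome 9, had 18.0 and 8.91 FPKM in NT roots and 4.16 and 7.17 FPKM in ROX OsERF48 roots. The NT library of set 1 was high for both, and without it the log2 fold changes of -1.18 and -1.08 shrank to -0.58 and -0.61. Neither gene was called in limma without the ROX OsERF48 library of set 1, nor WRKY62 without that of set 2. A WRKY6-like gene, Os01g0289732, had 13.8 and 10.5 FPKM in NT roots and 7.22 and 3.88 FPKM in ROX OsERF48 roots, and its log2 fold change of -1.04 was -0.66 without the ROX OsERF48 library of set 2 and -0.86 without the NT library of set 1. WRKY17 (Os01g0972800) rose, with 5.67 and 6.67 FPKM against 2.42 and 2.25 FPKM in NT (log2 fold change 1.10 ± 0.12, adjusted p = 0.0302). Without the NT library of set 1 the balance turned, with 4 WRKY members higher and 2 lower, while without the ROX OsERF48 library of set 1 it was 2 and 6, and rescaling gave 11 lower with quantile normalization and 10 with median ratios.

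MYB factors had 5 higher and 22 lower members of 104, and 9 lower without the ROX OsERF48 library of set 1. The most abundant of those that fell, the Myb factor gene Os01g0975300, had 2509 and 1822 FPKM in NT roots and 1213 and 1379 FPKM in ROX OsERF48 roots (log2 fold change -0.72 ± 0.21, adjusted p = 0.219). The AP2/ERF family itself, with 9 higher and 11 lower of 70, had 3 called higher members including OsERF48 and 1 called lower. The lower one, an ERF5-like gene, Os09g0287000, named after its values were seen, had 42.5 and 29.4 FPKM in NT roots and 17.7 and 15.3 FPKM in ROX OsERF48 roots (log2 fold change -1.06, adjusted p = 0.0929). Of the higher ones, one was a DREB2B-like gene, Os02g0797100, of the drought-response group, with 4.72 and 4.60 FPKM against 1.79 and 1.38 FPKM in NT (log2 fold change 1.14 ± 0.12, adjusted p = 0.0306). The other, Os03g0750000, is described as similar to an ethylene-responsive protein and had 13.2 and 11.5 FPKM against 1.12 and 1.15 FPKM in NT (log2 fold change 2.64 ± 0.11, adjusted p = 0.00173). Its place in the family rests on that description alone.

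Immune receptors were lower in larger numbers but with small changes. NB-ARC proteins are intracellular immune receptors, and 50 of 269 were lower and 20 higher, with a median of -0.11 and 20 lower without the NT library of set 1. Of these 269 genes, 3 were called higher and 1 lower. Receptor-like kinases, which sit at the cell surface, had 41 lower and 14 higher members of 214, and 21 lower without the same library. Individual NB-ARC genes went the other way by large factors. One of them, Os10g0136100, lies in a dense run of called genes on chromosome 10, described below, and had at most 0.0161 FPKM in the Root libraries. Os08g0260800 had 8.07 and 9.90 FPKM against 0.513 and 0.503 FPKM in NT, and Os10g0136100, similar to Hv1LRR2, had 7.70 and 7.14 FPKM against 0.00690 and 0.0219 FPKM in NT. Both were near or under 0.5 FPKM in NT and well above it in ROX OsERF48 (log2 fold changes 2.72 ± 0.13 and 3.05 ± 0.10, adjusted p = 0.00256 and 0.00111).

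Defence proteins depended strongly on the set. Of 144 chitinases, glucanases and PR (pathogenesis-related) proteins, 13 were higher and 15 lower, and 32 were lower without the NT library of set 2. Within NT, 17 of the 144 were at least 2-fold higher in set 1 than in set 2 and 0 the other way, and within ROX OsERF48 15 and 0. The chitinase 1-like gene Os10g0416500 had 42.6 and 11.6 FPKM in NT roots and 6.20 and 4.68 FPKM in ROX OsERF48 roots, and the log2 fold change of -1.87 was -0.97 without the NT library of set 1 and missed the test without the ROX OsERF48 library of set 2. A PBZ1-like gene, Os12g0555200, of the PR-10 group, had 86.5 and 43.8 FPKM in NT roots and 21.4 and 34.2 FPKM in ROX OsERF48 roots, and its log2 fold change of -1.16 was -0.68 without the NT library of set 1 and -0.83 without the ROX OsERF48 library of set 1. An endo-1,3-beta-glucosidase, Os01g0940700, had 10.1 and 5.32 FPKM in NT roots and 1.28 and 1.12 FPKM in ROX OsERF48 roots and an adjusted p of 0.0581. The DUF26 gene Os04g0659300 spanned 1028 and 473 FPKM in NT roots and 229 and 66.6 FPKM in ROX OsERF48 roots, wide within both genotypes, and its log2 fold change of -2.49 did not pass the test without the NT library of set 1.

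More even defence changes were seen in other genes. A thionin-like peptide gene, Os07g0429700 (chr7:14118026-14118911), had 608 and 663 FPKM in NT roots and 268 and 238 FPKM in ROX OsERF48 roots (log2 fold change -1.32 ± 0.12, adjusted p = 0.0161). Thionins are small antimicrobial peptides, and the Root libraries had the opposite order for this gene, 426 and 433 FPKM in ROX OsERF48 and 125 and 131 FPKM in NT. The PR-1-like gene Os02g0786900 rose, with 15.8 and 9.94 FPKM against 2.12 and 2.58 FPKM in NT (log2 fold change 2.02 ± 0.23, adjusted p = 0.0323). Among enzymes, Os06g0244000, similar to an anthranilic acid methyltransferase, which in maize makes the volatile methyl anthranilate, had 35.3 and 24.2 FPKM in NT roots and 6.14 and 7.31 FPKM in ROX OsERF48 roots (log2 fold change -1.98 ± 0.20, adjusted p = 0.0233). Of 52 glutathione S-transferases, which conjugate toxic compounds, 2 were higher and 9 lower. These counts were 2 and 14 without the NT library of set 2, 4 and 6 without that of set 1, and 2 and 2 of 29 with a mean of at least 5 FPKM.

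Protective proteins of drought rose in part. LEA proteins, dehydrins and ASR proteins had 6 higher and 3 lower members of 20, with a median of 0.10. Abscisic stress ripening protein 1 (Os02g0543000, chr2:20165664-20166649) had 495 and 591 FPKM in the ROX OsERF48 libraries and 214 and 223 FPKM in the NT libraries, without overlap (log2 fold change 1.31 ± 0.12, adjusted p = 0.0203). The 20 genes together summed to 1893 and 2178 FPKM in the ROX OsERF48 libraries. Abundant genes outside these 20, with related descriptions, also rose. Os11g0167800, similar to the pollen desiccation protein LLA23, had 2471 and 3019.9 FPKM against 1174 and 1478 FPKM in NT. Its log2 fold change of 1.05 was 0.91 without the ROX OsERF48 library of set 2 and 0.89 without the NT library of set 1 and under quantile normalization. LIP5-like Os03g0655400, also not counted among the 20, had 2689 and 3035 FPKM against 695 and 1282 FPKM in NT (log2 fold change 1.597 ± 0.32, adjusted p = 0.113). Without the NT library of set 1, 1 LEA member was higher and 1 lower, and without the ROX OsERF48 library of set 2, 2 and 4. A class CIII small heat stress protein, Os02g0782500, had 11.2 and 9.09 FPKM against 1.77 and 1.44 FPKM in NT (log2 fold change 2.09 ± 0.14, adjusted p = 0.00836), and it was the only called member among 208 heat shock proteins and chaperones, of which 6 were higher and 13 lower.

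Sugar enzymes had 12 higher and 3 lower members of 70. The beta-amylase Os03g0141200, on the study's own gene lists, releases maltose from starch. It had 37.4 and 28.7 FPKM against 8.18 and 10.9 FPKM in NT (log2 fold change 1.69 ± 0.18, adjusted p = 0.0294). Without the NT library of set 2, 9 of these enzymes were higher and 9 lower. Family counts above include genes that the study itself lists, among them 5 of these 70 enzymes and 12 of 70 AP2/ERF genes. The same holds for 3 of 20 LEA, dehydrin and ASR genes and 2 of 14 xyloglucan endotransglucosylases. These listed genes were chosen on libraries of this series, so their counts are no independent evidence of direction. Of the 119 such loci tested, 18 were called higher and none lower. At an unadjusted p under 0.05 with any fold, limma gave 46 higher and 2 lower among them. The median log2 fold change was 0.20. The 55 loci taken from its candidate list had 39 higher and none lower at that unadjusted p, with a median of 0.74. Of 93 loci taken from its supplementary list of network nodes, 85 were tested, and 22 of these were higher and 2 lower, with a median of 0.059.

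Further strongly changed genes belonged to no single group. A cyclic nucleotide-gated ion channel 14-like gene, Os08g0254600 (chr8:9411335-9416401), of a family of calcium channels, had 31.1 and 32.9 FPKM in the ROX OsERF48 libraries and 3.34 and 2.18 FPKM in the NT libraries. Libraries within each genotype were close, and the increase of 3.15 ± 0.17 on the log2 scale had an adjusted p of 0.00355. Calmodulins and EF-hand proteins, which bind calcium, had 18 higher and 20 lower members of 206, and 1 was called. A UDP-glycosyltransferase, Os01g0179600, which attaches sugars to small molecules, had 12.3 and 9.46 FPKM against 0.417 and 0.502 FPKM in NT (log2 fold change 3.02 ± 0.15, adjusted p = 0.00288). Of its family of 104, 5 were higher and 16 lower, and 9 were lower when either the ROX OsERF48 library of set 2 or the NT library of set 1 was left out. Large declines included a GDSL lipase, Os07g0642200, with 22.6 and 30.9 FPKM in NT roots and 0.0547 and 0 FPKM in ROX OsERF48 roots (log2 fold change -4.74 ± 0.17, adjusted p = 0.0012). Its neighbour Os07g0642100, with a nucleic acid-binding OB fold, had 6.97 and 7.77 FPKM in NT roots and 0.1003 and 0.0431 FPKM in ROX OsERF48 roots (log2 fold change -2.96 ± 0.11, adjusted p = 0.00135). Both genes were expressed in all 4 Root libraries, Os07g0642200 at 8.96 and 9.93 FPKM in ROX OsERF48 and 9.36 and 9.01 FPKM in NT. The BURP domain gene Os05g0217700, of a plant-specific family, had 14.5 and 12.9 FPKM in NT roots and 0.0443 and 0.0459 FPKM in ROX OsERF48 roots (log2 fold change -3.81 ± 0.11, adjusted p = 0.000657). An alcohol dehydrogenase-like gene, Os03g0189600, had 5.24 and 5.66 FPKM in NT roots and 0.660 and 0.546 FPKM in ROX OsERF48 roots (log2 fold change -2.01 ± 0.11, adjusted p = 0.00387). Also lower were an aldo/keto reductase, Os10g0113100, and a BLN1-1-like gene, Os10g0137300, at log2 fold changes of -3.93 and -4.47. A gluconeogenic enzyme, the phosphoenolpyruvate carboxykinase 4-like Os03g0255500, had 331 and 285 FPKM in NT roots and 135 and 155 FPKM in ROX OsERF48 roots. Its log2 fold change of -1.08 was -0.99 without the ROX OsERF48 library of set 1 and -0.98 without the NT library of set 1.

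**Figure D3:**
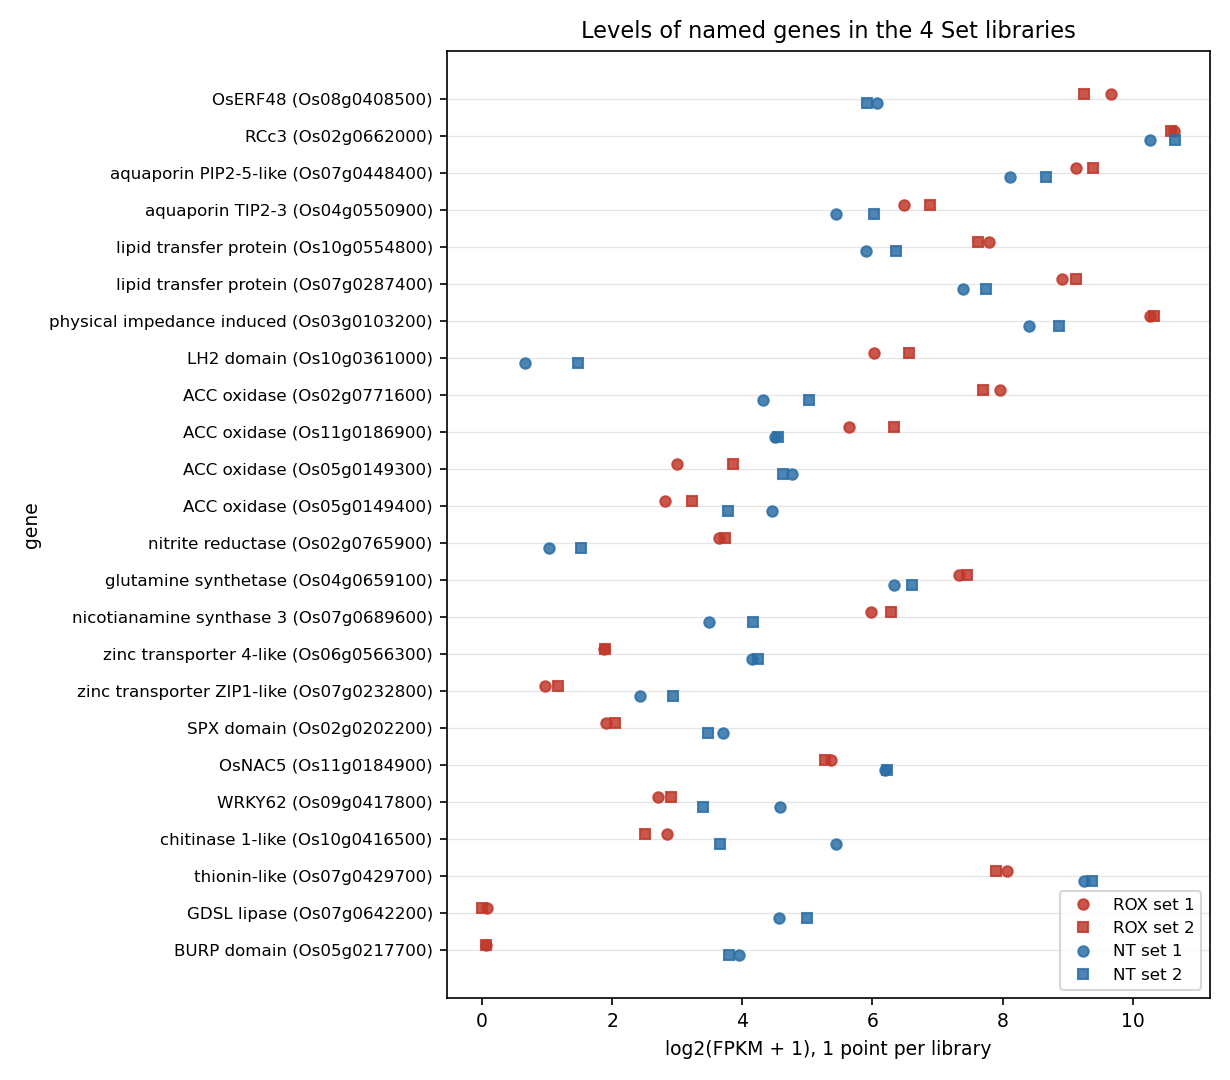
Level of 24 named genes in each Set library, as log2(FPKM + 1), with ROX OsERF48 in red and NT in blue, circles for set 1 and squares for set 2. OsERF48 lies at 816 and 612 FPKM in ROX OsERF48 against 65.9 and 59.3 FPKM in NT, while the RCc3 values of the genotypes overlap. For WRKY62 and the chitinase 1-like gene the NT circle lies far to the right of the NT square.

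Many of the strongest changes belonged to genes with no known function. Of the called genes, 113 of the higher (46.9%) and 60 of the lower (38.5%) carried a description without a function, against 35.5% of all genes tested. The hypothetical gene Os07g0511400 (chr7:19533865-19534577) had 659 and 1003 FPKM in the ROX OsERF48 libraries and 0.155 and 1.22 FPKM in the NT libraries. It was low in both NT libraries and far higher in both ROX OsERF48 libraries, and it rose by 8.99 ± 0.36 on the log2 scale (adjusted p = 0.00154). Conserved hypothetical genes with the same pattern were Os03g0115800, with 217 and 282 FPKM against 0.167 and 0.397 FPKM in NT, and Os08g0300501, with 143 and 135 FPKM against 0.119 and 0.337 FPKM in NT. Another, Os03g0299700, had 79.2 and 86.1 FPKM against 0.139 and 0.108 FPKM in NT. In the other direction, the non-coding transcript Os04g0653500 (chr4:33334267-33334365) was listed at 0 in both ROX OsERF48 libraries and at 310.3 and 316 FPKM in NT. It was also listed at 0 in all 4 Root libraries, and any fold for it depends on the 1 added to FPKM before the log2.

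In all, 92 called genes were near 0 in one genotype, defined as under 0.5 FPKM in both of its libraries. Of these, 67 were near 0 in NT and 25 in ROX OsERF48, and 58 had no function in their description. Of the 67, 26 had the same pattern in the Root libraries and 34 were low in all 4 of them. Of the 25, 3 had the same pattern there, 15 were expressed in all 4 Root libraries, 4 were low in all and 1 had the opposite pattern. The higher genotype exceeded 10 FPKM in 12 of the 67 and 3 of the 25. Because the rule for being near 0 uses the same values as the comparison, these counts describe and are not tested. Each of these genes also passed the filter on mean FPKM only through the genotype in which it was higher. Among them are Os08g0220400, Os10g0136100 and Os01g0339500, named above.

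**Figure D4:**
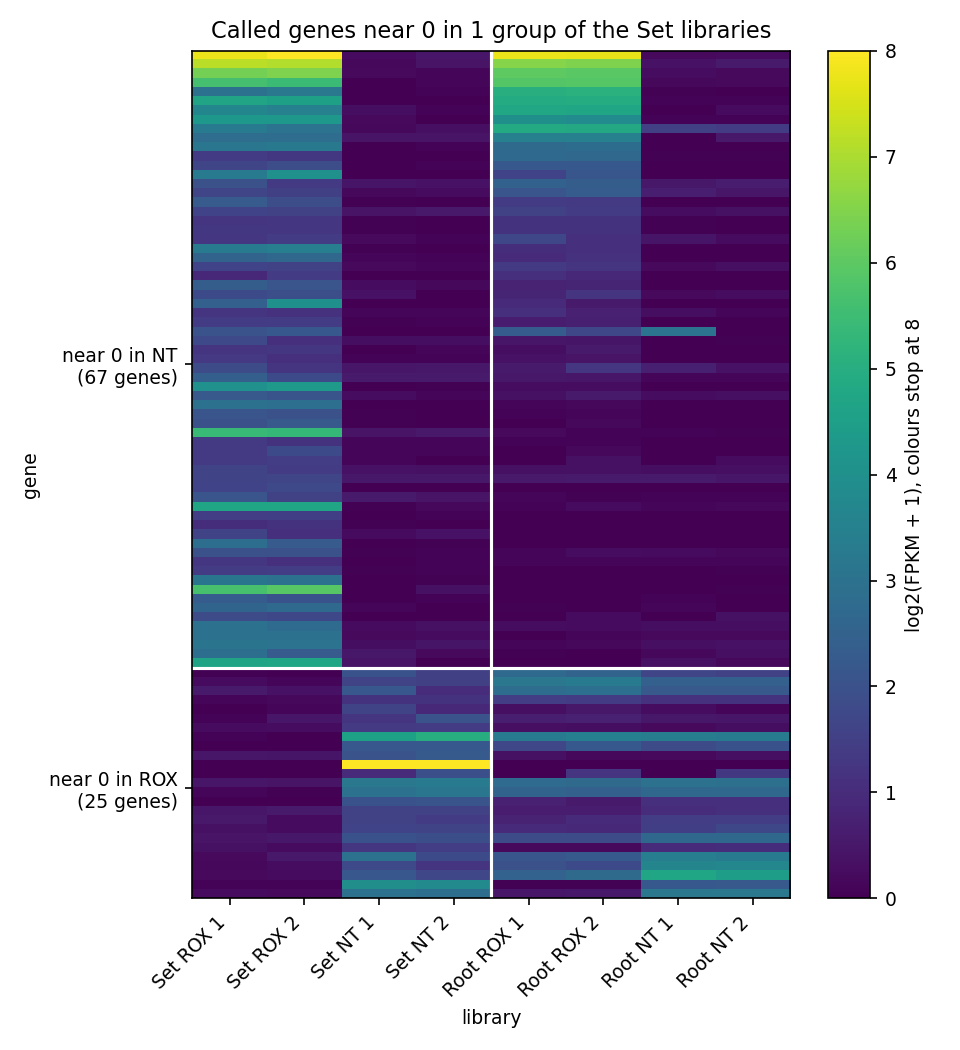
Levels of the 92 called genes that were under 0.5 FPKM in both libraries of one genotype, as log2(FPKM + 1), 1 row per gene and 1 column per library, with the Root libraries to the right. The upper block of 67 genes is dark in the Set NT libraries and the lower block of 25 in the Set ROX OsERF48 libraries. In the Root libraries 26 of the 67 repeat the pattern, and 34 are dark in all 4.

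Called genes were unevenly spread over the genome. Chromosomes 11, 10 and 7 held the largest shares of called genes among the genes tested on them, 3.00%, 2.83% and 2.20%, against 1.52% over all, and chromosome 9 held 0.769%. Runs of 50 consecutive tested genes with at least 6 called genes merged into 4 regions with 38 called genes. On chromosome 10, chr10:1726495-2618660 held 11, 9 of them higher, and chr10:806037-1445372 held 8. The former includes the Hv1LRR2-like gene Os10g0136100 and the BLN1-1-like gene Os10g0137300. The latter includes the aldo/keto reductase Os10g0113100. These genes are described by function above, and their place in such a run was not separated from it. Another, chr7:20504692-21152324, held 9, of which 6 were lower, and it includes the F-box genes Os07g0535100, with 7.09 and 7.13 FPKM against 0.161 and 0.185 FPKM in NT, and Os07g0535200, with 7.46 and 7.25 FPKM against 0.240 and 0.374 FPKM in NT. F-box proteins choose targets for protein breakdown. The region chr11:4014842-5266068, which includes the ACC oxidase Os11g0186900, held 10, and 7 of these were called in the same direction in the Root libraries. In the other 3 regions at most 1 gene was. The 4 regions were chosen for their counts, which are therefore a description. Insertion sites of the transgene were not analysed here.

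The Root libraries allowed the same comparison with other libraries of the 2 genotypes. Over the same genes, 979 were called higher there (3.75%) and 224 lower (0.857%). Of the 241 genes called higher in the Set libraries, 86 were also higher in the Root libraries, which is 35.7% of the Set list and 8.78% of the Root list. Of the 156 lower genes, 30 were shared, 19.2% of the Set list and 13.4% of the Root list. In the opposite direction, 4 Set-higher genes were called lower and 7 Set-lower genes higher. The median Root log2 fold change was 0.60 over the genes higher in the Set libraries and -0.19 over the lower ones. Shared increases outside the study's lists included nicotianamine synthase 3, with Root values of 22.3 and 25.5 FPKM in ROX OsERF48 and 7.83 and 7.12 FPKM in NT, and the CNGC14-like gene, with 39.2 and 36.6 FPKM in ROX OsERF48 and 5.89 and 5.599 FPKM in NT. Shared declines included the BURP domain gene, with 0.0292 and 0.0248 FPKM in ROX OsERF48 and 3.57 and 3.74 FPKM in NT, and the alcohol dehydrogenase-like gene, with 2.48 and 2.25 FPKM in ROX OsERF48 and 7.28 and 7.54 FPKM in NT.

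A fit of both groups of libraries tested whether the ROX OsERF48 effect differed between them. It differed at an adjusted p under 0.05 for 5406 genes (20.7%). Among the Set calls this held for 151 of the higher genes (62.7%) and 90 of the lower (57.7%). The Set values that made these calls also enter the difference, so a larger share than over all genes follows from the choice. These shares are a description. OsERF48 itself had 464 and 469.6 FPKM in ROX OsERF48 and 86.6 and 86.2 FPKM in NT in the Root libraries, a log2 fold change of 2.42 that was 1.06 below the Set value. Nitrite reductase, glutamine synthetase and the LH2 domain gene differed by 2.53, 1.13 and 5.02 on the log2 scale, higher in the Set libraries. The families also took other positions, as WRKY factors had 16 called higher and none lower in the Root libraries, and the median of histone, cyclin and replication genes was -0.23 there. Aquaporins had 5 called higher and none lower in the Root libraries, with a median of 0.54, and none called in the Set libraries. Set and Root libraries correlated with r between 0.834 and 0.892 across genes, and what set them apart is not given, so growth, tissue and line cannot be told apart between them.

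**Figure D5:**
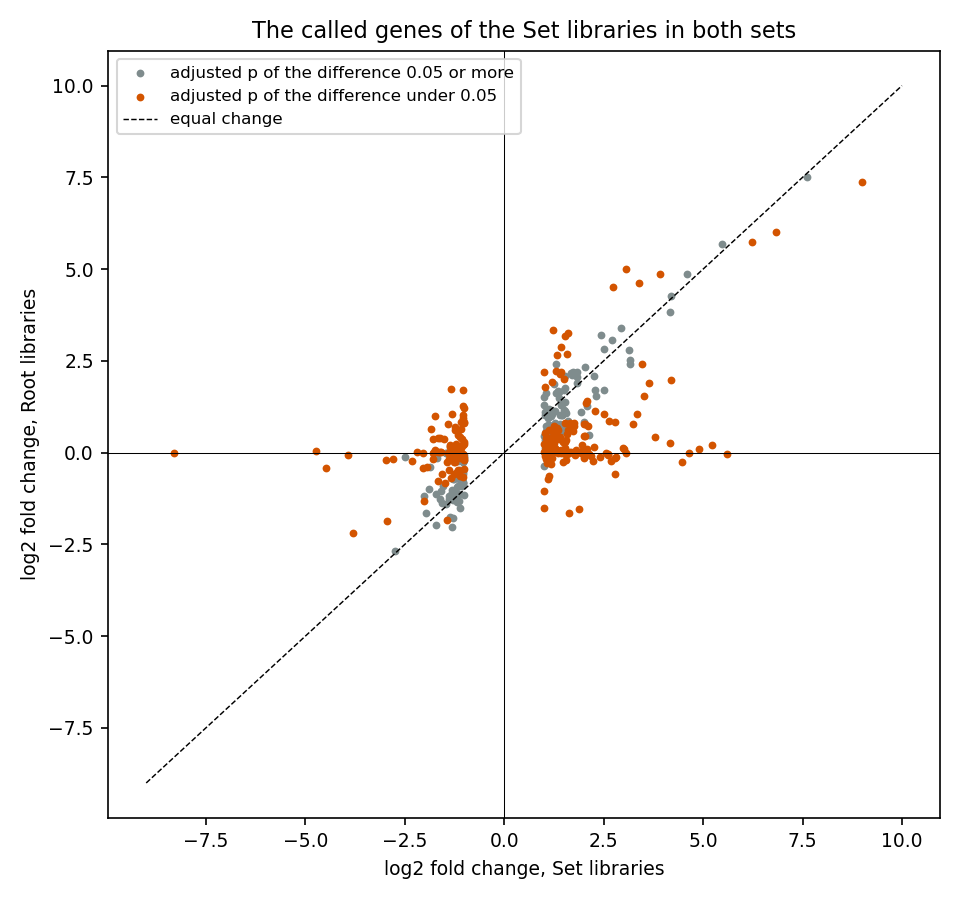
Log2 fold change, ROX OsERF48 against NT, of the 397 genes called in the Set libraries, in the Set libraries (horizontal) and the Root libraries (vertical). Orange points are the 241 genes whose effect differed between the libraries at an adjusted p under 0.05, grey points the others, and the dashed line marks equal change. Many points lie near 0 on the vertical axis, and 86 higher and 30 lower genes were called in both.

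Libraries of one genotype differed from each other in the Set more than in the Root libraries. The median absolute difference on the log2 scale was 0.13 between the ROX OsERF48 and 0.12 between the NT libraries of the Set, against 0.078 and 0.060 in the Root libraries. At least 2-fold differences separated the ROX OsERF48 libraries for 286 genes, 231 of them higher in set 1, and the NT libraries for 225 genes, 199 of them higher in set 1. Low-oxygen enzymes were among these, with 10 of 41 at least 2-fold higher in set 1 within ROX OsERF48 and 5 within NT. Metallothioneins, small metal-binding proteins, took 3.75% and 8.72% of the summed FPKM in the ROX OsERF48 libraries of set 1 and 2, and 6.68% and 7.06% in the NT libraries. The most abundant of them, Os12g0571100, had 9800.2 and 28215 FPKM in the ROX OsERF48 libraries and 20028 and 22322 FPKM in the NT libraries, so the groups overlapped and the spread within ROX OsERF48 exceeded the difference between genotypes (adjusted p = 0.84).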

How the data were processed

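RNA of rice roots was sequenced by a service provider (Macrogen), per the study's methods. FPKM per gene and FPKM per transcript are the values the authors deposited, with descriptions and, for transcripts, lengths in bases and positions. The submitters' processing notes name the build IRGSP-1.0, and the aligner and quantification tool are not given in the sources used here. Starts were raised by 1 to count from 1. Another 4 columns of each table match no listed sample and were not used. FPKM corrects for depth and length, but a few abundant genes can shift all others.

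Set columns with ERF48 in the name were taken as ROX OsERF48. The log2(FPKM + 1) values of the deposited FPKM were analysed for genes with a mean of at least 0.5 FPKM over the 4 Set libraries, so fold changes of low genes are understated. limma 3.58.1 in R 4.3.3 (lmFit, eBayes with a trend) gave log2 fold changes, SE and p-values, on 2 residual degrees of freedom with a prior of 3.06. An exact permutation test of 2 against 2 libraries cannot reach the threshold and was not used. The fits were tested on simulated data. Depth was estimated from whole-fragment steps, with 93.0% to 93.2% of low values within 0.1 of a whole fragment.

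The members and lists were chosen with earlier results of these data known. The genes named were taken from the largest rises and falls, up to 3 called members of families with at least 3 calls in a direction, the most abundant called genes and those with the smallest p-values, and 38 genes were added after values were seen. Family patterns over the descriptions were corrected for false matches. Alternatives were a pseudocount of 0.1, no filter or a minimum mean of 5 FPKM, quantile or median-ratio scaling, no trend, a fit with the Root libraries, a replicate block, summed transcripts, adjusted p-values and leaving out each library. No sequence is shown.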

Additional observations from a re-analysis of the deposited data

Results flagged for a closer look

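The ROX OsERF48 effect was compared between the Set and the Root libraries by a test of the difference itself, in a limma fit of all 8 libraries. Genes named in the report are listed here where the effects differed at least 2-fold with an adjusted p under 0.05. Every value below is the log2 fold change in the Set libraries minus that in the Root libraries, and what set the groups of libraries apart is not given.

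OsERF48 itself gave 1.06 and the RCc3 gene 1.14, the latter with 152 and 161 FPKM in ROX OsERF48 and 321 and 307 FPKM in NT in the Root libraries. Among genes with a larger rise in the Set libraries, the LH2 domain gene Os10g0361000 gave 5.02 and nitrite reductase 2.53. Glutamine synthetase gave 1.13, the UDP-glycosyltransferase Os01g0179600 gave 2.91, and an actin-related protein 5-like gene, Os01g0144340, gave 2.93. The lipid transfer protein gene Os10g0554800 gave 1.08, the pectin lyase fold gene Os08g0220400 gave 1.65, and the peroxidase 43-like gene gave 1.26. The PR-1-like gene Os02g0786900 gave 1.56 and the small heat stress protein gene Os02g0782500 gave 2.14. For the DREB2B-like gene the difference was 1.12, and for the ethylene-responsive protein-like gene Os03g0750000 it was 1.79. The F-box genes Os07g0535100, Os07g0535200 and Os10g0567900 gave 2.93, 2.89 and 1.95, and the Hv1LRR2-like gene gave 3.07. Of the genes without a known function, Os07g0153150 gave 4.80, Os10g0381601 gave 4.63 and Os07g0511400 gave 1.603. The beta-expansin Os10g0555900, lower in both groups of libraries, gave 1.16.

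Among genes that were lower in the Set libraries, the GDSL lipase Os07g0642200 gave -4.77, its neighbour Os07g0642100 -2.77 and another GDSL lipase, Os01g0216000, -1.77. The BLN1-1-like gene gave -4.05 and the aldo/keto reductase -3.86. The thionin-like gene, which was higher in ROX OsERF48 in the Root libraries, gave -3.06. The zinc transporter genes Os06g0566300 and Os07g0232800 gave -2.08 and -2.03, the heavy metal domain gene -1.88, the SPX gene -1.64 and the ABC transporter Os06g0554800 -1.09. WRKY76 gave -1.91 and the WRKY6-like gene -1.25. The ACC oxidases Os05g0149300 and Os05g0149400 gave -1.29 and -1.28, the glucanase -1.53, the phosphoenolpyruvate carboxykinase gene -1.20 and the NIP1-1-like aquaporin -1.03. The BURP domain gene gave -1.63, an RNA polymerase II 7.6 kDa subunit-like gene, Os11g0194800, gave -1.07, and a glycosyl transferase family 14 gene, Os10g0127350, gave -1.601. An F-box-like gene, Os04g0280500, gave -2.04, and the unannotated genes Os07g0531900 and Os07g0531800 gave -2.61 and -2.22. The non-coding transcript Os04g0653500 gave -8.29, a value that depends on the pseudocount because it was listed at 0 in 6 of the 8 libraries.

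Larger rises in the Root than in the Set libraries gave negative values for the ankyrin repeat gene Os11g0182900, -1.96, and the LIP5-like gene, -1.66.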

How the results depend on the processing

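The 241 higher and 156 lower genes became 376 and 396 with a pseudocount of 0.1, and 134 and 70 when a mean of at least 5 FPKM was asked for, a filter under which fewer genes were tested. Asking for an adjusted p under 0.05 left 173 higher and 70 lower genes. Leaving out each library in turn gave 233 to 298 higher and 121 to 312 lower genes. No other alternative moved a count by over 1.5 times, and the count of genes whose effect differed between Set and Root libraries stayed between 4178 and 5490. The OsERF48 log2 fold change lay between 3.27 and 3.68 under all alternatives.

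The set number was also fitted as a replicate block. The block gave 243 higher and 171 lower genes and kept all 397 called genes, and 563 genes had an adjusted p under 0.05, against 324 without it. Deviations of same-numbered libraries from their genotype means correlated with r = 0.256 across genes. With only 2 pairs and no source that says what the number marks, the libraries are not taken as paired.

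Of the 88 called genes that the report draws on, 70 passed both limits under every alternative except the adjusted threshold, 67 had an adjusted p under 0.05, and none reversed. Without a filter, 10 lost the call, and 18 lost it when 1 library was left out. Limits: 2 libraries per genotype, unknown lines and columns not tied to the biological or technical replicates of the methods bound what these p-values cover, low genes rest on few fragments, and most family counts rest on changes under 2-fold at an unadjusted p.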
